A study of Mus musculus with 68 samples.

Results

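Smooth muscle cells and pericytes are the mural cells of blood vessels, and their contractile genes were followed here as a set of 10: Acta2, Tagln, Cnn1, Myh11, Actg2, Myl9, Des, Rgs5, Tpm2 and Cspg4. They were taken by symbol, with earlier results of these data known, and all 10 were found among the 27179 genes of the deposited count table. RNA-seq counts came from 17 cultures of mesenchymal stromal cells, grown out of mouse long bones. The Het cultures came from Ezh2fl/+:Prrx-1-Cre mice (also spelled Prxx-1-Cre in the labels), in which 1 floxed allele of the histone methyltransferase gene Ezh2 is open to deletion, and the WT cultures came from Ezh2+/+:Prrx-1-Cre mice. Both genotypes thus carried the Cre, which the Prrx1 promoter drives in limb mesenchyme. Mice were 3 or 12 months old, which gave WT 3M (n = 4: S3, S4, S5 and S12), Het 3M (n = 3: S8, S10 and S14), WT 12M (n = 4: S2, S6, S7, S13) and, as the largest group, Het 12M (n = 6: S1, S9, S11, S15, S16 and S17). All groups were grown in culture and taken up with trypsin before the RNA was made, so every value is from cultured cells. The design text speaks of 3 biological samples in a group, whereas the labels hold the numbers given here, and none was left out. On GRCm38 the genes lie as follows: Acta2 at chr19:34240336-34255585, Tagln at chr9:45929628-45936058, Cnn1 at chr9:22099221-22109221, Myh11 at chr16:14194527-14292188, Actg2 at chr6:83512909-83536251, Myl9 at chr2:156775408-156781657, Des at chr1:75360292-75368579, Rgs5 at chr1:169655501-169695813, Tpm2 at chr4:43513726-43523583 and Cspg4 at chr9:56865104-56899870.

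In smooth muscle, force comes from actin filaments (Acta2, Actg2), which slide along a myosin of heavy chains (Myh11) and regulatory light chains (Myl9). Tropomyosin (Tpm2), calponin (Cnn1) and transgelin (Tagln) bind the thin filament, and desmin (Des) forms intermediate filaments. Rgs5, a regulator of G-protein signalling, and the proteoglycan Cspg4, also called NG2, are used as pericyte markers. Many of these genes are switched on by serum response factor (SRF) with myocardin or the myocardin-related factors MRTF-A and MRTF-B. Stromal cells that take on a myofibroblast state in culture, on a stiff surface or under TGF-beta, make several of the same proteins, so the genes alone do not name a cell type.

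SRF binds a sequence called the CArG box, a core of 6 A or T bases between CC and GG. The promoters of Acta2 and Myl9 are shown because they were the only ones among the 7 members with an entry in the RefSeq table that held a match. The entries run from 250 bases before to 50 bases after the annotated start (build GRCm38.p6). Capitals mark a CArG box, a CArG box with 1 other base in its core, or the motif CATTCC of TEAD factors on either strand.
Acta2, chr19:34255324-34255623, minus strand: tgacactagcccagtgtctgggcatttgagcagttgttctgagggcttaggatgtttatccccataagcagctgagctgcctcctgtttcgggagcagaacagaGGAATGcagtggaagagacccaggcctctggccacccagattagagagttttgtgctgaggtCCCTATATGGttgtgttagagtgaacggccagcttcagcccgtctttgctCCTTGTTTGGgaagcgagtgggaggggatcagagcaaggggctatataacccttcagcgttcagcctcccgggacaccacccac
Myl9, chr2:156775214-156775513, plus strand: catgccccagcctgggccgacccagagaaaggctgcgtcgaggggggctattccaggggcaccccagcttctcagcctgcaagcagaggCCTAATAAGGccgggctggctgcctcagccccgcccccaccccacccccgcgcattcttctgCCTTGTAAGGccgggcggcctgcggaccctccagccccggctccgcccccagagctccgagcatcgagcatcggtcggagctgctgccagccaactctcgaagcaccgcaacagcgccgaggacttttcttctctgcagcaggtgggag
Myl9 held a CArG box, CCTAATAAGG, at -161 to -152 from the start, and CCTTGTAAGG, with 1 other base in the core, at -99 to -90. Acta2 held 2 matches with 1 other base in the core, CCCTATATGG at -84 to -75 and CCTTGTTTGG at -34 to -25, and the reverse of the TEAD motif, GGAATG, at -146 to -141. None of the marked matches overlaps another. Of all 32851 promoters of 300 bases in the table, 1.63% held a CArG box, 9.98% a core with at most 1 other base, and 14.7% CATTCC on either strand. These letters were not found in the windows of Cnn1, Des, Rgs5, Tpm2 and Cspg4, and a match is a description of sequence, not a measured binding site. Tagln, Myh11 and Actg2 had no entry.

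The 17 libraries held 13687876 to 28597221 counts. Levels are given as CPM, the gene's count scaled to the same total in every library, after TMM scaling, a correction for library composition. At 3 months Ezh2 itself ranged from 9.17 to 14.3 CPM in WT and from 8.47 to 12.8 in Het cultures, and at 12 months from 7.63 to 35.7 in WT and from 8.61 to 25.2 in Het cultures. The fitted difference, Het against WT, was -0.19 ± 0.42 (log2, SE) at 3 months and -0.16 ± 0.36 at 12 months. Exons outside the deleted part count towards the gene, so this does not measure recombination. Of 21 stromal markers at most 1 was under 1 CPM in any library: Prrx1 ran from 171 to 895 CPM and Pdgfra from 96.0 to 385, and Lepr, the lowest, from 0.518 to 12.8. Of 30 pericyte genes, which summed to 809 to 2730 CPM, 7 to 13 were under 1 CPM in a library. Notch3, at 6.02 to 75.9 CPM, and Cd248, at 134 to 776, were present throughout, whereas Higd1b was at 0 in all 17 libraries, Kcnj8 at 0 in 6 and Abcc9 under 1 CPM in 13. Of 32 skeletal and cardiac muscle genes, which summed to 13.9 to 51.7 CPM, 24 to 28 were under 1 CPM in a library. The skeletal muscle regulators Myf5, Myod1 and Pax7 were at 0 in 17, 12 and 15 libraries. Another, Myog, was at 0 in 7 and reached at most 0.262 CPM. The 3 libraries that stood apart did so in markers of other cells or of the stroma. Sox10, of Schwann and neural crest cells, reached 231 CPM in WT 12M S6 (at most 3.89 elsewhere), the macrophage gene Lyz2 reached 30100 CPM in Het 12M S9 (at most 2020 elsewhere), and Het 12M S15 had the lowest Col1a1, at 1500 CPM, and Prrx1, at 171 CPM. In the 4 libraries labelled WT 12M the sex-linked transcripts did not match the sex on the label. S2 and S13, labelled male, had Xist, a transcript of female cells, at 362 and 295 CPM and Y-linked sums under 1 CPM. S6, labelled female, had Xist at 0.192 CPM and a Y-linked sum of 114 CPM. S7, labelled female, had both, at 81.6 and 140 CPM, and whether it held mixed material was not tested. Comparisons with that group thus refer to the libraries so labelled.

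Per length of transcript, the thin-filament and light-chain genes led the set. The median over the 17 cultures was 711 RPKM (TMM-scaled CPM divided by the exon length in kilobases) for Acta2, 423 for Tagln, 282 for Myl9, 174 for Tpm2, 37.5 for Actg2 and 32.2 for Cnn1. Cspg4 stood at 7.05 RPKM. Myh11, at 1.03 RPKM, Des, at 0.376, and Rgs5, at 0.213, were close to the bottom, so the heavy chain that marks mature smooth muscle was far below the actin it works with. The 10 genes together took between 0.155 and 0.516% of all counts in WT 3M and between 0.0671 and 0.483% in Het 3M. At 12 months the share was between 0.062 and 0.842% in WT and between 0.0939 and 0.648% in Het. The 4 ranges overlapped.

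**Figure D1:**
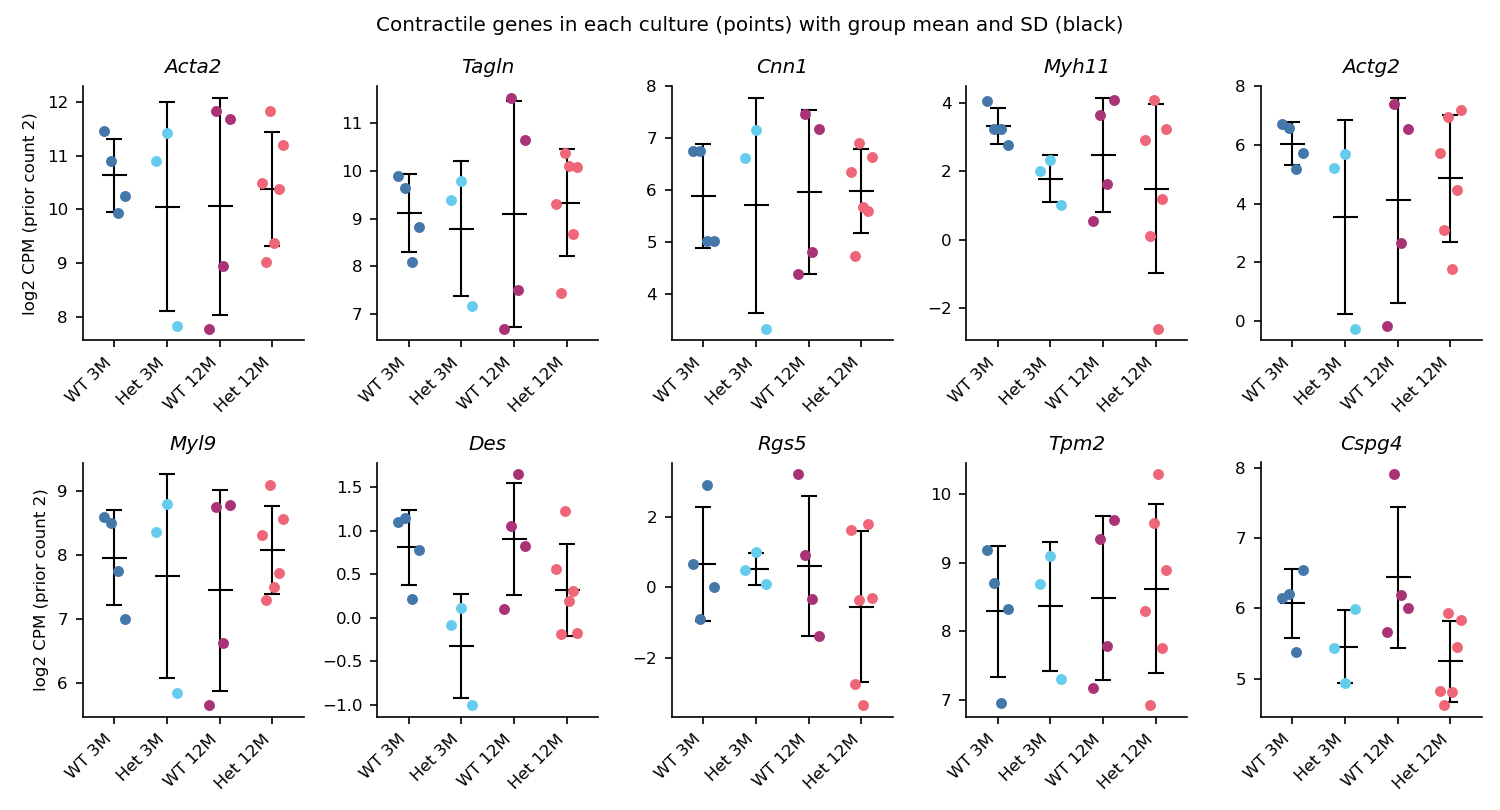
Level of each of the 10 genes in log2 CPM with a prior count of 2 (vertical axis, scales differ between genes) in every culture (coloured points) of WT 3M (n = 4), Het 3M (n = 3), WT 12M (n = 4) and Het 12M (n = 6), with the group mean and SD in black. Points of the groups overlap for all genes in all 4 comparisons, apart from Myh11 and Des in Het 3M against WT 3M.

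Acta2, smooth muscle alpha-actin, was read at 2830, 1910, 983 and 1220 CPM in WT 3M S3, S4, S5 and S12. Het 3M S8, S10 and S14 had 1930, 2730 and 225 CPM. In the WT 12M cultures S2, S6, S7 and S13 it stood at 219, 3650, 490 and 3310 CPM. Across Het 12M it ran from 516 in S9 over a median of 1390 to 3670 CPM in S11. The groups overlapped throughout, and the WT 12M cultures fell into 2 high and 2 low ones. The group means were 1920 ± 1820 (SD, n = 4) in WT 12M, 1730 ± 828 (n = 4) in WT 3M, 1660 ± 1180 (n = 6) in Het 12M and 1630 ± 1280 (n = 3) in Het 3M, an order in which no neighbours differed beyond their spread. In bulk cultures, fewer cells that express a gene and less of its RNA per cell cannot be told apart.

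Tagln, transgelin or SM22-alpha, had 953, 803, 274 and 454 CPM in WT 3M S3, S4, S5 and S12, and 675, 889 and 144 in Het 3M S8, S10 and S14. In WT 12M S2, S6, S7 and S13 it had 103, 2970, 182 and 1610 CPM, the widest spread of the 4 groups. Het 12M lay between 175 and 1330 CPM, with a median of 859. The same cultures as for Acta2 were low, apart from Het 12M S15, which had 665 CPM of Acta2 and 1100 of Tagln.

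Actg2, the gamma-actin of visceral smooth muscle, had the largest SD of the 10 on the log2 scale. It had 104, 95.9, 36.2 and 53.0 CPM in WT 3M, 37.5, 51.3 and 0.739 in Het 3M, and 0.803, 166, 6.28 and 93.2 in WT 12M, in the order of samples above. Het 12M ran from 3.33 over a median of 37.5 to 146 CPM. Its SD over the 17 cultures was 2.45 on the log2 scale, larger than that of 99.2% of the genes tested. Cnn1, calponin, ran from 9.89 CPM in Het 3M S14 to 177 in WT 12M S6, and Myl9, the regulatory light chain, from 50.2 in WT 12M S2 to 541 in Het 12M S11. Acta2 and Actg2 have near-identical relatives. The skeletal actin Acta1 was at 0.739 to 13.6 CPM and the cardiac actin Actc1 under 1 CPM in all 17 libraries. How reads shared between such genes were counted is not given in the sources used here, so the split between the actins is uncertain.

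Myh11, the smooth muscle myosin heavy chain, was read at 16.6, 9.41, 9.42 and 6.84 CPM in WT 3M and at 3.93, 4.95 and 1.93 in Het 3M. The 2 groups did not overlap. WT 12M had 1.38, 12.6, 2.99 and 17 CPM, and Het 12M ran from 0.0654 over a median of 4.82 to 17.2 CPM, so both older groups overlapped each other and the younger ones. The lowest value, in Het 12M S15, was 1 count, under the 3 counts taken as the limit of detection (0.196 CPM there). These floors cover counting error only.

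Des, desmin, was low in all cultures. It had 2.05, 2.12, 1.06 and 1.62 CPM in WT 3M and 0.845, 0.979 and 0.398 in Het 3M, again without overlap. WT 12M had 0.976, 1.97, 3.03 and 1.66 CPM, and Het 12M ran from 0.778 over a median of 1.09 to 2.25. The gap between the lowest WT 3M culture, at 1.06, and the highest Het 3M culture, at 0.979 CPM, was small beside the range within either group.

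Tpm2, beta-tropomyosin, ran from 124 to 579 CPM in WT 3M and from 157 to 550 in Het 3M. The 12-month ranges were 144 to 786 CPM for WT and 121 to 1260 for Het. Its highest value was in Het 12M S15, where Acta2 ranked the fifth lowest of 17. Per length, Tpm2 reached 1.61 times and Tagln 2.12 times the level of Acta2 in that culture, against 0.108 to 0.595 times and 0.356 to 1.04 times in the 16 others.

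Cspg4, the NG2 proteoglycan, had 70.9, 73.7, 41.5 and 93.5 CPM in WT 3M, 43.2, 30.5 and 63.3 in Het 3M, and 50.5, 240, 72.9 and 64.2 in WT 12M. Het 12M ran from 24.6 over a median of 35.8 to 61.0 CPM. Apart from the 240 CPM of WT 12M S6, the WT 12M range of 50.5 to 72.9 overlapped the upper part of Het 12M. Rgs5 was at 1.48, 0.443, 7.31 and 0.909 CPM in WT 3M, 1.29, 1.91 and 0.966 in Het 3M, and 9.18, 1.78, 0.703 and 0.285 in WT 12M. Het 12M ran from 0 counts in S15, where 3 counts would be 0.196 CPM, over a median of 0.7 to 3.36 CPM, and S9 had 1 count. Its highest cultures, WT 3M S5 and WT 12M S2, had the lowest Acta2 of their groups.

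Het and WT cultures were compared first in the young mice. None of the 10 genes passed in edgeR's quasi-likelihood test at an adjusted p of 0.05, where 0% of the 14897 genes tested did. At an unadjusted p under 0.05 there was 1 member, Des, against 1.6% of genes. Des was fitted at -1.20 ± 0.52 (log2 difference of Het 3M from WT 3M with its SE, p = 0.0345 before and 1.0 after Benjamini-Hochberg adjustment), lower in 3 of 3 Het cultures than in any WT culture. Myh11 was at -1.55 ± 1.10 (edgeR adjusted p = 1.0), also without overlap. The groups did not overlap for these 2 members and for 6.78% of all genes tested. The filament genes at high level lay near 0, with Acta2 at -0.09 ± 0.91, Tagln at -0.12 ± 0.93, Myl9 at 0.03 ± 0.72 and Tpm2 at 0.05 ± 0.74. For Acta2 the 95% interval ran from 0.249-fold to 3.55-fold, so the interval includes differences of more than 3-fold in either direction. The other members were Cnn1 at 0.26, Actg2 at -1.28, Rgs5 at -0.86 and Cspg4 at -0.61. In all, 7 of 10 were fitted lower, with a median of -0.37, beside 52.5% of all genes and a median of -0.0181.

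The edgeR p-values weigh each difference against the spread between cultures within groups, estimated over all groups together, the older ones included. Without Het 12M S15, a culture outside this comparison, the unadjusted edgeR p of Myh11 went from 0.179 to 0.1. The log2 difference of Myh11 stayed at -1.55. The labels do not say whether each culture came from 1 mouse, or whether Het 3M S8 and S10 came from the same mouse. S8 and S10 had the most alike counts of all pairs of different samples. Their chi-square per degree of freedom was 17.6, against 39.19 for the next pair. Het 3M S14, the culture of its group labelled female, was the lowest of its group for 9 of the 10 members and the highest for Cspg4. Without it Des was at -0.91 (unadjusted p = 0.140), Myh11 at -1.26 and the median of the 10 at -0.16. Without S10 all 10 were fitted lower, with Des at -1.45, Myh11 at -1.86 and a median of -0.65, and without WT 3M S3 the median was -0.23. DESeq2 called none of the members and 0% of genes. Limma voom with sample quality weights, which down-weights cultures that stand off their group, called 3 members as lower, Myh11 at -1.77, Des at -1.21 and Cspg4 at -0.82, with limma adjusted p of 0.0192, 0.0168 and 0.0184. It also called 8.67% of all genes in this comparison. Its weights ranged from 0.306 for WT 3M S5 to 7.32 for S3 and from 0.695 for Het 3M S14 to 8.88 for S8, with S3 and S8 the highest. Over the alternatives other than voom the smallest adjusted p was 0.614 for Myh11, 0.802 for Des and 1.0 for Cspg4.

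**Figure D2:**
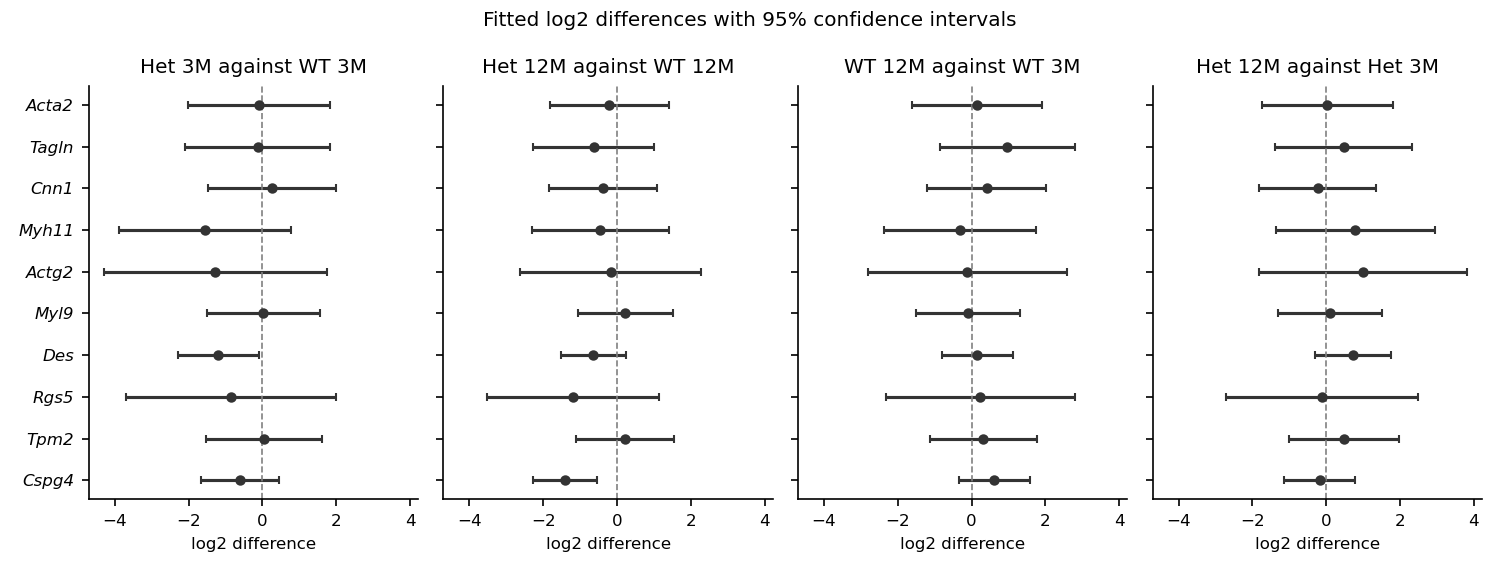
Fitted log2 differences (horizontal axis) of the 10 genes in the 4 comparisons of groups, with 95% confidence intervals from edgeR. All intervals include 0 except those of Des for Het 3M against WT 3M (-2.30 to -0.10) and Cspg4 for Het 12M against WT 12M (-2.27 to -0.53), neither of which passed after adjustment.

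At 12 months the same question was put to older mice. None of the 10 genes passed in edgeR, as was the case for 0% of all genes, and Cspg4 was the 1 member at an unadjusted p under 0.05, against 8.37% of genes. The mean of Cspg4 was 40.4 ± 16 CPM in Het 12M (SD, n = 6) against 107 ± 89.2 CPM in WT 12M (SD, n = 4). The fitted log2 difference was -1.40 ± 0.41 (edgeR p = 0.00341, adjusted p = 0.3, and 0.0962 to 0.816 over the alternatives). The groups overlapped. WT 12M S6 decided the size: without it the difference was -0.63, with an unadjusted p of 0.0786. That culture also had 437 CPM of Mcam, another gene used for pericytes and Schwann-lineage cells, against at most 19.9 elsewhere. The summed level of the 12 Schwann and neural crest markers was 1360 CPM in S6, against 40.2 to 118 CPM in the other WT 12M cultures and 36.3 to 136 CPM in Het 12M, and their part in the Cspg4 result was not tested. Of the 15 chondrocyte genes tested, 8 had an unadjusted p under 0.05 in this comparison, with a median of -1.85, and their part was not tested either.

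The other members at 12 months were fitted between -1.20 for Rgs5 and 0.23 for Myl9, with Acta2 at -0.21 ± 0.76 and Myh11 at -0.45 ± 0.88. The groups overlapped for all 10, where they did not for 1.32% of genes. In all, 8 of 10 were fitted lower with a median of -0.41, beside 44.3% of all genes and a median of 0.05. Leaving out 1 library moved the median from -0.71 (without Het 12M S11) to 0.24 (without WT 12M S6), and S6 was the 1 culture whose removal turned its sign. It was -0.64 without WT 12M S2, -0.21 without Het 12M S9 and -0.028 without WT 12M S13. DESeq2 called none of the 10 and 0.712% of genes, and had Cspg4 at an adjusted p of 0.0962. Voom with quality weights called none of the 10 and 1.15% of genes, but moved the median of the 10 to 1.20 and turned 5 members, so that 7 of 10 were fitted higher in Het 12M. Acta2 was then at 1.93, with a limma adjusted p of 0.165.

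Age was compared within each genotype. Between WT 12M and WT 3M no member and 0% of all genes passed in edgeR. At an unadjusted p under 0.05 there were 0 members and 8.22% of genes, and the groups overlapped for all 10 members, where they did not for 8.1% of genes. Tagln had the largest fitted difference, 0.97 ± 0.87, but stood at 0.004 without WT 12M S6. Cspg4 followed at 0.61 ± 0.46, and at -0.17 without the same culture. Acta2 was at 0.15 ± 0.84 and Myh11 at -0.31 ± 0.97. In all, 7 of 10 were fitted higher, with a median of 0.20. Leaving out 1 library moved the median from -0.15 (without WT 12M S6) to 0.50 (without WT 12M S7). It was 0.45 without WT 12M S2, 0.37 without WT 3M S3, 0.063 without WT 3M S12, 0.009 without WT 12M S13 and 0.005 without WT 3M S5. Voom with quality weights gave the opposite sign for most members, with a median of -1.60, and called Acta2 at -2.21 and Myl9 at -1.75 as lower in WT 12M (limma adjusted p of 0.0335 and 0.0361), with 10.1% of all genes. It gave the 2 low cultures WT 12M S2 and S7 weights of 1.57 and 2.04 and the 2 high ones S6 and S13 weights of 0.327 and 0.449. DESeq2 called no member and 0.356% of genes. The sign of the age difference in WT cultures thus differed between edgeR and voom for most members.

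Between Het 12M and Het 3M no member and 0% of genes passed in edgeR, 0 members and 3.28% of genes had an unadjusted p under 0.05, and all 10 members overlapped, where 1.91% of genes did not. Actg2 was at 0.99 ± 1.33, Myh11 at 0.79 ± 1.01 and Des at 0.72 ± 0.48, and 7 of 10 were fitted higher with a median of 0.29. Leaving out 1 library moved that median from 0.073 (without Het 3M S14) to 0.76 (without Het 3M S10). It was 0.10 without Het 12M S11, which also took Myh11 to 0.17, 0.18 without Het 12M S17 and 0.45 without Het 12M S9. DESeq2 and voom each called 0.00671% of genes and no member. Most Het 12M cultures are labelled female and most Het 3M cultures male, so age and sex are partly mixed in this comparison. The 2 comparisons of age share no cultures with each other, but each shares a group with the comparisons of genotype. The difference between the genotype effects at the 2 ages, fitted as an interaction, passed for no member and for 0% of genes in edgeR. It ran from -0.79 for Cspg4 to 1.11 for Actg2, with unadjusted p from 0.235 to 0.923, and 5.76% of genes had an unadjusted p under 0.05. DESeq2 called 0.235% and voom 6.3% of genes for the interaction, and neither called a member.

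For each member most of the spread lay within the groups, least so for Des and Cspg4. Group membership accounted for 0.8% of the variance of Cnn1 on the log2 scale, 1.8% for Tpm2, 2.1% for Tagln, 3.3% for Acta2 and 6.3% for Myl9, beside a median of 16.4% over all genes tested. It was 10.9% for Rgs5, 13.3% for Actg2 and 18% for Myh11. Des, at 45.4%, and Cspg4, at 41.0%, were the 2 members above the other 8. With groups of so few cultures, some share falls between groups even where the groups do not differ. These shares describe the 17 cultures and were not tested.

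**Figure D3:**
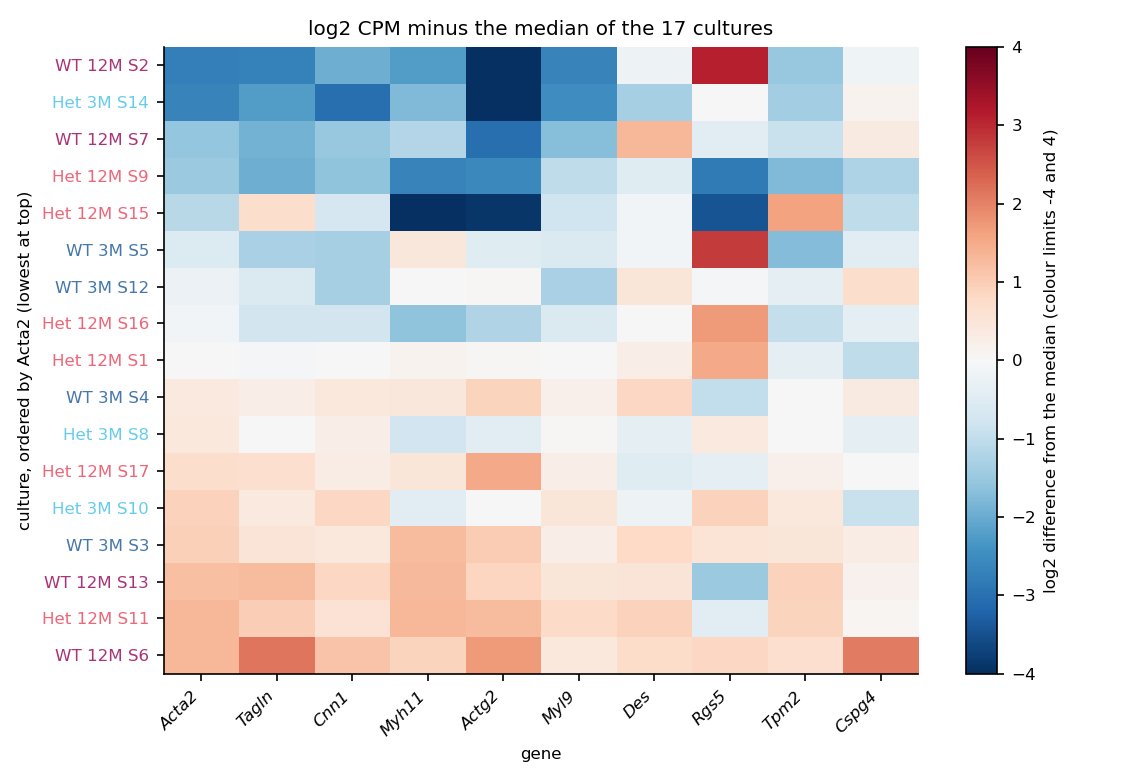
Each culture (rows, ordered by Acta2 with the lowest at the top, label colour giving the group as in the plot of levels by group) and each gene (columns), coloured by log2 CPM minus the gene's median over the 17 cultures, blue for lower and red for higher. The 5 lowest rows in Acta2 come from Het 3M, WT 12M and Het 12M, and Rgs5 and Cspg4 do not follow the order.

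Cultures ranked alike for most of the filament genes. Het 3M S14 was among the 4 lowest of 17 in 8 of the 10 genes, Het 12M S9 in 8 and WT 12M S2 in 7. WT 12M S6 and Het 12M S11 were each among the 4 highest in 8. WT 12M S13 was among the 4 highest in 6, and no other culture in more than 4.

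Across the 17 cultures Acta2 went with Myl9 (Pearson r = 0.96, Spearman rho = 0.96), Actg2 (0.95 and 0.88), Cnn1 (0.94 and 0.95) and Tagln (0.89 and 0.87). The permutation p of these r was 1e-05, the smallest that 100000 permutations can give, and 2e-05 for Tagln, with adjusted values of 9.33e-05 to 0.00014 over 28 relations. Without the 2 cultures farthest from the median of Acta2 the r of the 4 genes lay between 0.82 and 0.92, and with the group means removed between 0.90 and 0.97. Myh11 (r = 0.70, rho = 0.83, permutation p = 0.00164, adjusted 0.00918) and Tpm2 (r = 0.68, rho = 0.74, permutation p = 0.00225, adjusted 0.0105) followed less closely. Without the 3 libraries that stood apart their r was 0.81 and 0.87. Des (r = 0.46, rho = 0.43), Cspg4 (0.29 and 0.28) and Rgs5 (-0.04 and -0.08) did not pass, with adjusted permutation p of r of 0.131, 0.422 and 0.891. Depth, as the total count, gave r = 0.32 and rho = 0.26 with Acta2 (adjusted permutation p = 0.383). Relations within a library share its scaling, and no batch is named in the labels.

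**Figure D4:**
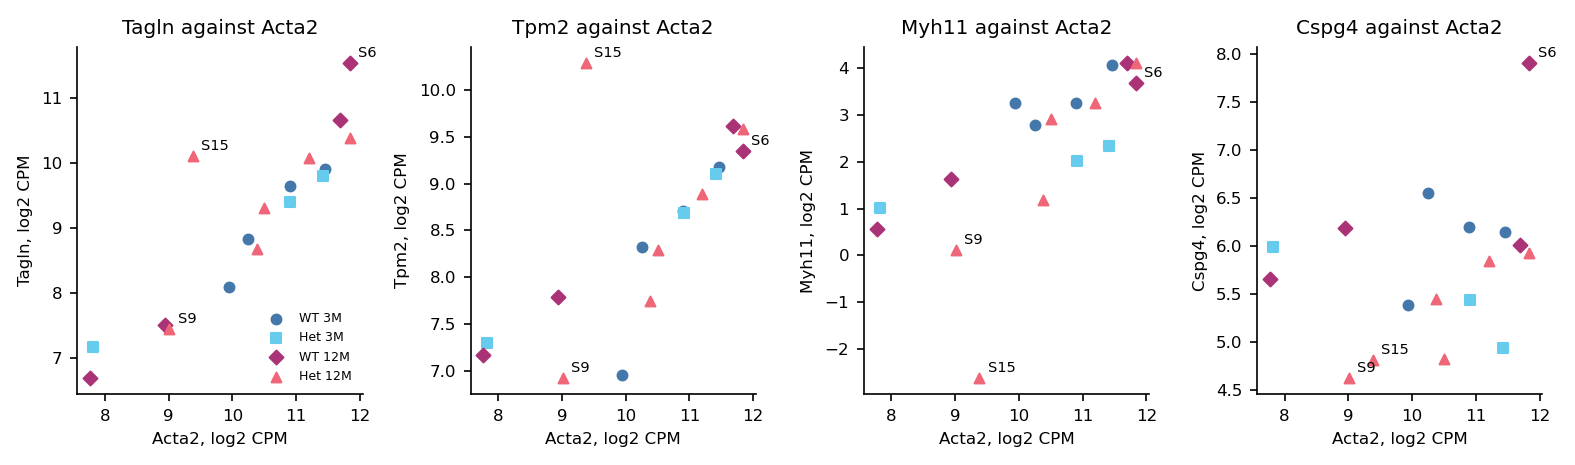
Tagln, Tpm2, Myh11 and Cspg4 (vertical axes, log2 CPM) against Acta2 (horizontal axis, log2 CPM), 1 point for each of the 17 cultures, shape and colour giving the group. Tagln follows Acta2 (r = 0.89) and Cspg4 does not (r = 0.29). Het 12M S15 is the highest culture for Tpm2 and the lowest for Myh11. Its Tagln is high for its level of Acta2, but not the highest of the cultures.

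Grouped by protein after these values were seen, the 21 pairs among the 7 actin, myosin and thin-filament genes had a median r of 0.79 (0.17 to 0.96). The 24 pairs with Des, Rgs5 or Cspg4 had a median of 0.31 (-0.43 to 0.51). The weakest pair of the 7 was Myh11 with Tpm2, at 0.17, and it was 0.72 without the 3 libraries that stood apart, so that pair rested on them.

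Regulators of these genes were read next to them. Srf had 41.1 to 96.8 CPM, Mrtfa 33.4 to 76.1 and Mrtfb 23.2 to 50.1, narrow ranges beside that of Acta2. Myocd, the myocardin gene, was under 1 CPM in 16 of 17 cultures and at 2.64 CPM in WT 12M S6. Against Acta2, Srf had r = 0.54 and rho = 0.55 (permutation p = 0.0256, adjusted 0.0796). The r of Srf was 0.35 without the 2 farthest cultures and 0.63 without the 3 libraries that stood apart. Myocd had r = 0.52 and rho = 0.40 (permutation p = 0.0323, adjusted 0.0822), with r = 0.54 without the 2 farthest cultures. Without the 3 libraries that stood apart, WT 12M S6 among them, the r of Myocd was 0.35. Mrtfa had r = 0.11 and Mrtfb r = 0.09. Of the TGF-beta ligands, Tgfb3 had r = 0.56 and rho = 0.72, of which only rho passed (adjusted permutation p = 0.0563 and 0.00668). The r of Tgfb3 was 0.77 without the 2 farthest cultures and 0.57 without the 3 libraries. Tgfb1 and Tgfb2 had r = -0.10 and -0.07. Summed chondrocyte markers ran the other way, with r = -0.62 and rho = -0.45 (adjusted permutation p = 0.0332 and 0.184), and r = -0.43 without the 2 farthest cultures, -0.67 with group means removed and -0.80 without the 3 libraries that stood apart. The summed contractile apparatus list had r = 0.53 and rho = 0.60, of which only rho passed (adjusted permutation p = 0.0822 and 0.0441), with r = 0.34 without the 2 farthest cultures and 0.73 without the 3 libraries. Vim and Actb had the highest levels in that sum in all 17 libraries, so it mainly reflects genes at high level. Schwann and neural crest markers had r = -0.05 and rho = -0.45 (adjusted permutation p = 0.891 and 0.184), and r = -0.64 without the 3 libraries. For endothelial (0.05), macrophage (-0.15), skeletal and cardiac muscle (0.19), adipocyte (-0.48) and cell-cycle (0.43) markers no r with Acta2 passed adjustment.

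Other genes of the contractile apparatus were likewise not called. Of 51 on the list 49 were tested and 0 passed in either direction in any of the 5 comparisons, with 1, 4, 5, 1 and 3 of the 49 at an unadjusted p under 0.05, beside 1.6, 8.37, 8.22, 3.28 and 5.76% of all genes in the same order. The medians of Het 3M against WT 3M, Het 12M against WT 12M, WT 12M against WT 3M and Het 12M against Het 3M were -0.23, -0.05, -0.09 and -0.06. Hspb6, a small heat shock protein of smooth muscle, was among the 2 genes of the list with the smallest p in 4 of the 5 comparisons. It had 28.6 ± 6.23 CPM in WT 3M, 49.4 ± 4.81 in Het 3M, 44.9 ± 8.24 in WT 12M and 20.7 ± 9.27 in Het 12M. The ranges of Het and WT did not overlap at either age, and lay in opposite order at 3 months (46.0 to 54.9 against 20.4 to 35.2) and 12 months (8.57 to 32.6 against 34.8 to 54.9). Het and WT did not overlap for 6.78% of all genes tested at 3 months and for 1.32% at 12 months. Hspb6 was named for its small p in these same comparisons. The interaction of Hspb6 was -1.91 ± 0.45 (edgeR p = 0.000600, adjusted p = 0.498), so it did not pass. Itga7, a laminin receptor, had the smallest p at 12 months, -2.83 ± 0.66 (edgeR adjusted p = 0.182), and its highest WT 12M value was 162 CPM against a median of 12.2.

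Of 27 SRF and MRTF regulators 23 were tested, of 29 target genes of SRF, MRTF and YAP all 29, of 33 TGF-beta pathway genes 32 and of 7 PDGF pathway genes all 7. None passed in any direction in any comparison. At an unadjusted p under 0.05 there were 0 to 3, 0 to 4, 2 to 5 and 0 to 1 genes per comparison, where the share of all genes was 1.6 to 8.37%. The TGF-beta list had 5 of 32 for Het 3M against WT 3M, 4 fitted lower and 1 higher, where 1.6% of all genes did, and 5 of 32 for Het 12M against WT 12M, where 8.37% did. Klf4, a factor known to repress smooth muscle genes, stood at 164 ± 62.7 CPM in WT 3M and 63.7 ± 22.1 in WT 12M, a log2 difference of -1.36 ± 0.33 (edgeR adjusted p = 0.407). Bambi, a decoy receptor that dampens TGF-beta signalling, stood at 11.9 ± 1.10, 24.4 ± 3.22, 29.0 ± 12.8 and 16.8 ± 4.21 CPM in WT 3M, Het 3M, WT 12M and Het 12M. Its interaction was -1.82 ± 0.41 (edgeR adjusted p = 0.498). Of 30 pericyte genes 23 were tested and 0 passed, and Ndufa4l2 was among the 2 with the smallest p between the ages in WT, -1.75 ± 0.47 (edgeR adjusted p = 0.482).

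The genes whose pattern over the 17 cultures was most like the mean z-score of the 10, among 12604 ranked, were Kctd5 (r = 0.92), Flna and Tpm4 (0.90), Sec61a1, Actn4, Pdlim7, Tnfrsf23, Tgfb1i1 and Myh9 (0.89) and Ptprn (0.88). Flna (filamin A), Tpm4 (a tropomyosin), Actn4 (an alpha-actinin), Pdlim7, Tgfb1i1 and Myh9 (the non-muscle myosin heavy chain) code for proteins of actin filaments and their attachments. Flna ran from 887 to 2950 CPM and Tpm4 from 432 to 1610, smaller ranges than that of Acta2. Without the 3 libraries that stood apart 1 of the 10, Kctd5, was again among the top 10, although the r of the 10 stayed between 0.82 and 0.91. With the group means removed, 3 were again among the top 10. The order of these names is therefore not firm.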

How the data were processed

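RNA was sequenced from TruSeq RNA v2 libraries, a kit that does not mark strand. The authors deposited raw counts per Entrez gene, made with Subread and featureCounts on mm10 per the submitters' processing notes; versions, and the handling of reads shared between genes, are not given in the sources used here. The 4 technical replicates of each biological sample, whose counts agreed within sampling noise (chi-square per degree of freedom at most 1.09), were summed. Symbols were matched for 25275 of 27179 genes; the other 1904 held 0.573% of counts and stayed in the fits. RPKM used exon lengths of GENCODE M21 on GRCm38.

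The fit was edgeR 4.0.16 (R 4.3.3) with TMM scaling, filterByExpr and the quasi-likelihood F-test over all 17 samples, 1 coefficient per group and no sex term, because sex-linked transcripts and labelled sex disagree in WT 12M. Benjamini-Hochberg adjustment ran over all 14897 genes, with a threshold of 0.05, and the common biological coefficient of variation was 0.512. The fit was tried on simulated counts with known differences, for error in the fitted size and for the rate of low p in unchanged genes. How often a true difference in the members would be called is not given here. Alternatives were DESeq2 1.42.0, limma 3.58.1 voom with quality weights, scaling by RLE or by library totals, testing without the filter, labelled sex or a Y-linked score as a term, only the groups compared, leaving out 3 libraries together or each sample in turn, and Het 3M S8 and S10, the most alike pair of different samples, as 1 sample. Correlations used log2 CPM with a prior count of 2.

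The members, gene lists and tests were chosen with earlier results of these data known. Named genes are the 10 members, Ezh2, the SRF, myocardin and TGF-beta genes, per list up to 2 genes with the smallest p in a comparison, and the 10 genes of at least 1 CPM most like the members. Marker lists were read as summed levels and counts. Hspb6 and Bambi, named by this rule, are described at more length because of their values.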

Additional observations from a re-analysis of the deposited data

Results flagged for a closer look

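Each of the 10 genes was checked in the 3 groups with 4 or 6 cultures for a single culture far from the rest. The check divided the gap to the next culture by the range of the group, in CPM and not on the log2 scale. Of 30 such checks 3 picked out a culture, each as the highest of its group. The rule is set to pick about 1 in 20 where values follow a normal curve. CPM values need not do so, so the count of 3 cannot be judged against that rate. Rgs5 stood at 7.31 CPM in WT 3M S5, against 0.443 to 1.48 in the other 3 WT 3M cultures. S5 also had the highest endothelial Cdh5 and Pecam1 of all 17, at 18.5 and 27.8 CPM. Rgs5 stood at 9.18 CPM in WT 12M S2, against 0.285 to 1.78 in the other 3 of its group, and this was the culture with the lowest Acta2, Tagln and Myl9 of all 17. Cspg4 stood at 240 CPM in WT 12M S6, against 50.5 to 72.9 in the others, together with 231 CPM of Sox10 and 437 CPM of Mcam. The part of these other markers in the 3 values was not tested.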

How the results depend on the processing

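None of the 10 genes was called by edgeR under any of the alternatives run, including leaving out each sample. DESeq2 called 106 genes for Het 12M against WT 12M, 53 for WT 12M against WT 3M, 1 for Het 12M against Het 3M and 35 for the interaction, none of them a member in the 4 comparisons of groups. Voom with quality weights called 1292, 171, 1508, 1 and 939 genes in the order of the report, 3 members at 3 months and 2 between the WT ages, and moved the median of the 10 to 1.20 for Het 12M against WT 12M, -1.60 for WT 12M against WT 3M and 1.54 for the interaction. Without the 3 libraries that stood apart edgeR called 2 genes for WT 12M against WT 3M. Leaving out 1 sample gave 0 to 2 genes for Het 12M against WT 12M and 0 to 1 for WT 12M against WT 3M.

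Signs were not firm for most members. Leaving out 1 sample, Het 3M against WT 3M ran from -0.69 to 0.42 for Acta2, -0.60 to 0.33 for Tagln, -0.37 to 0.78 for Cnn1, -0.50 to 0.50 for Myl9, -1.18 to 0.56 for Rgs5 and -0.34 to 0.41 for Tpm2. Het 12M against WT 12M ran from -0.60 to 0.33 for Acta2, -1.0 to 0.34 for Tagln, -0.71 to 0.16 for Cnn1, -1.06 to 0.13 for Myh11, -0.66 to 0.85 for Actg2, -0.11 to 0.62 for Myl9, -1.77 to 0.49 for Rgs5 and -0.26 to 0.62 for Tpm2. WT 12M against WT 3M ran from -0.39 to 0.51 for Acta2, -0.14 to 0.73 for Cnn1, -0.89 to 0.033 for Myh11, -1.14 to 0.29 for Actg2, -0.50 to 0.24 for Myl9, -0.16 to 0.38 for Des, -1.44 to 1.65 for Rgs5, -0.089 to 0.65 for Tpm2 and -0.17 to 0.85 for Cspg4. Het 12M against Het 3M ran from -0.48 to 0.63 for Acta2, -0.76 to 0.40 for Cnn1, -0.38 to 0.62 for Myl9, -0.68 to 0.20 for Rgs5 and -0.39 to 0.13 for Cspg4. The smallest adjusted p of a member in any of these fits was 0.243.

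Voom also turned the sign of Myl9 (-0.078), Rgs5 (0.21) and Tpm2 (-0.24) at 3 months, of Acta2 (1.93), Tagln (1.81), Cnn1 (1.25), Myh11 (1.14) and Actg2 (3.6) at 12 months, of Acta2 (-2.21), Tagln (-1.88), Cnn1 (-1.44), Des (-0.042), Tpm2 (-1.08) and Cspg4 (-0.063) between the WT ages, and of Tpm2 (-0.005) and Cspg4 (0.21) between the Het ages. With WT 12M S6, Het 12M S9 and S15 left out together, Het 12M against WT 12M was 0.73 for Acta2, 0.47 for Tagln, 0.46 for Cnn1, 0.37 for Myh11 and 1.39 for Actg2; WT 12M against WT 3M was -0.39 for Acta2, -0.14 for Cnn1 and -0.16 for Cspg4; Het 12M against Het 3M was 0.061 for Cnn1, 0.46 for Rgs5 and 0.049 for Cspg4. With S8 and S10 as 1 sample Cnn1, Myl9 and Tpm2 were at -0.10, -0.29 and -0.18 at 3 months, and Cnn1 at 0.12 between the Het ages. With labelled sex Myl9 was at -0.048 at 3 months and Rgs5 at 0.67 between the Het ages, and with the Y-linked score Myl9 was at -0.13 at 3 months and Actg2 at 0.12 at 12 months. The cause of these turns was not tested.

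No paired analysis was possible because the numbers shared between groups in the labels are those of technical replicates, and the sample numbers are each used once. No fit of only the groups compared was run for the interaction, which needs all 4 groups. Depth was lowest for Des, with 7 to 69 counts in a library, and for Rgs5, with 0 to 160. Myh11 had 1 count in 1 library and 19 to 406 in the 16 others, and its biological coefficient of variation was 0.922.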
